A study of Mus musculus with 13 samples.

Results

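The genes described here are 9 mouse genes of the small RNA pathways, Dicer1, Ago2, Ago3, Piwil2, Mael, Ddx4, Tdrkh, Mov10l1 and Pld6, picked by name and found among the 22442 genes of the oocyte Ribo-seq libraries through their Ensembl identifiers. All 9 were found. Ribo-seq sequences the short fragments that are left after digestion with RNase I, taken as ribosome-protected fragments (RPFs). The protocol as described did not isolate ribosomes before RNA extraction, so fragments protected in other ways may be included. An RPF count on a coding sequence (CDS) rises with both the amount of an mRNA and its translation. Each of the 11 Ribo-seq libraries came from about 100 pooled oocytes: at the germinal vesicle (GV) stage 3 were WT and 3 Nat10-ZcKO, and at metaphase II (MII) 2 were WT and 3 Nat10-ZcKO. Nat10 writes the RNA mark N4-acetylcytidine (ac4C). acRIP-seq, which sequences mRNA fragments pulled down by an anti-ac4C antibody, was done once, with 1 anti-IgG control library, on about 2000 WT GV oocytes per library.

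Nat10-ZcKO females carried 1 floxed and 1 deleted Nat10 allele with Zp3-Cre on a C57BL/6J background. Zp3-Cre is active in growing oocytes and not in granulosa cells, so the deletion starts after oocyte growth begins. Females of both genotypes were 21 days old at the first hormone injection. GV oocytes followed PMSG, and MII oocytes followed PMSG and hCG with the cumulus cells removed enzymatically. The design text also names a tamoxifen treatment, which the methods do not describe for Zp3-Cre, and whether these females received it was not given in the sources used here. The labels do not say whether libraries of a group came from separate females, so p-values measure only the spread between these pools.

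Dicer cuts double-stranded RNA into microRNAs and small interfering RNAs (siRNAs), and Argonaute proteins carry these to target mRNAs. Mouse oocytes are known for abundant siRNAs and for a shortened, oocyte-made Dicer that starts at a promoter inside the gene, while microRNA activity in them is weak. PIWI proteins carry a separate class, the piRNAs, which silence transposons in germ cells with the help of tudor-domain proteins, an RNA helicase and a mitochondrial nuclease. Loss of piRNA genes makes male mice sterile and leaves females largely fertile.

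RPFs on these genes were few. The libraries held 4815 to 279464 counts in total, and the 9 genes together took 0 to 219 of them. WT MII replicate 2, the library of 4815 counts, had no RPF on any of the 9 genes, and a count of 0 there allows up to 623 CPM (counts scaled to a library total of 1000000), taking 3 counts as the limit. In the other libraries the limit was 10.7 to 70.8 CPM. Intervals and limits cover counting error only. Nat10 itself had 8, 11 and 3 counts in WT GV, 4, 1 and 5 in Nat10-ZcKO GV, 1 and 5 in WT MII, with 6, 3 and 2 in Nat10-ZcKO MII libraries, so its counts did not separate the genotypes. The paper reports that the deleted exons shift the reading frame, and presumes decay of the mRNA. By immunostaining it found NAT10 protein lost from Nat10-ZcKO oocytes. Counts per gene cannot show which exons the RPFs lay on. A list of 14 oocyte markers took 5.61 to 7.73% of the counts in WT GV, 11.1% in Nat10-ZcKO GV replicate 3, and 1.18 to 1.47% in the 4 MII libraries other than WT MII replicate 2, which had 0.0415%. The same list took 0.0212% and 1.59% in Nat10-ZcKO GV replicates 1 and 2, where 12 adipocyte markers took 1.30% and 0.278%, against at most 0.0272% elsewhere. In these 2 libraries 4 and 13 of the 14 oocyte markers and 12 and 9 of the 12 adipocyte markers had a count. A list of 15 granulosa and cumulus markers took 0 to 0.513% of the counts in the other libraries and 1.05% in Nat10-ZcKO GV replicate 1. Nat10-ZcKO GV replicates 1 and 2 and WT MII replicate 2 are therefore called the 3 low libraries below, and the tests of the 9 genes by stage and by genotype are given with and without them.

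Dicer1, the RNase III enzyme of the microRNA and siRNA pathways, was the most counted of the 9 genes, with 799 RPFs over all libraries. It lies on the minus strand of chromosome 12 from 104687742 to 104751952 (GRCm38), with a CDS of 5718 bases. In WT GV oocytes its level was 316, 347 and 447 CPM. In Nat10-ZcKO GV oocytes it was 47.2, 367 and 350 CPM, where the low value is that of replicate 1 and rests on 2 counts. In WT MII oocytes it was 660 CPM in replicate 1 and 0 in replicate 2. In Nat10-ZcKO MII oocytes it was 857, 675 and 914 CPM. Every MII library other than WT MII replicate 2 lay above every GV library. Counts per gene cannot tell the oocyte form of Dicer from the full-length form, and per length the level is understated where the shorter form was read.

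Ago2, the Argonaute that cuts its target RNA, had only 27 RPFs in all. It lies on the minus strand of chromosome 15 from 73095844 to 73184935, with a CDS of 2580 bases. Its counts were 2, 8 and 0 in WT GV, 3, 1 and 2 in Nat10-ZcKO GV, 4 and 0 in WT MII, with 4, 2 and 1 in Nat10-ZcKO MII libraries, so no group stood apart. A low level cannot be told apart here from fragments lost in read placement. Of the 2553 stretches of 28 bases in the Ago2 CDS, about the length of an RPF, 37.4% also occur in the annotated exons of another gene, namely Ago1 or predicted genes such as Gm5281 and Gm6088. How fragments with several placements were counted is not given in the sources used here.

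Ago3, an Argonaute that binds the same classes of small RNA, had 79 RPFs. It lies on the minus strand of chromosome 4 from 126331704 to 126429556, and the union of its CDS segments is 2626 bases. Its level was 48.1, 10.7 and 10.4 CPM in WT GV oocytes and 0, 19.3 and 0 CPM in Nat10-ZcKO GV oocytes, from at most 7 counts in a library. It was 111 and 0 CPM in WT MII oocytes and 112, 75.0 and 125 CPM in Nat10-ZcKO MII oocytes, from 15, 0, 21, 11 and 20 counts. Again every MII library other than WT MII replicate 2 lay above every GV library. In Ago3, 5.60% of the stretches of 28 bases occur in another gene, Ago1 or Ago4. The other 7 genes share none.

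The longest run that the coding sequences of Ago2 and Ago3 have in common is shown because at 17 bases it is shorter than the 28 taken for an RPF. It reads the same in Ago2, at chr15:73121135-73121151, and in Ago3, at chr4:126363717-126363733, both on the minus strand of GRCm38 and each within 1 coding exon.
Ago2 and Ago3, 17 bases of CDS: GTGGAGCCCATGTTCCG

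Ddx4, the germ cell RNA helicase also called mouse vasa homolog, was the most counted of the 6 piRNA genes among the 9, with 160 RPFs. It lies on the minus strand of chromosome 13 from 112598333 to 112652475, with a CDS of 2184 bases. In WT GV oocytes it was at 61.9, 107 and 104 CPM. In Nat10-ZcKO GV oocytes it was at 0, 19.3 and 267 CPM, so the Nat10-ZcKO libraries lay on both sides of all WT values, with the low values in the 2 libraries low in oocyte markers and the high one in the library richest in them. In MII oocytes it was at 51.9 and 0 CPM in WT and at 74.5, 40.9 and 56.4 CPM in Nat10-ZcKO. The MII range overlapped the WT GV range.

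Tdrkh, a tudor protein that anchors PIWI proteins at mitochondria (chromosome 3, plus strand, 94413273 to 94434668), had 58 RPFs. Its level was 41.2, 35.8 and 31.2 CPM in WT GV oocytes and 0, 0 and 28.9 CPM in Nat10-ZcKO GV oocytes. In MII oocytes it was 44.5 and 0 CPM in WT and 85.1, 13.6 and 43.8 CPM in Nat10-ZcKO, a range that holds all WT GV values.

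Piwil2, a PIWI protein (chromosome 14, minus strand, 70372477 to 70429383), had counts of 2, 4 and 5 in WT GV and 0, 2 and 13 in Nat10-ZcKO GV libraries. In MII oocytes it had no count in either WT library, while the Nat10-ZcKO libraries had 0, 0 and 2. Mael, a factor needed for transposon silencing by piRNAs (chromosome 1, minus strand, 166201201 to 166238747), followed the same course. It had 3, 7 and 1 counts in WT GV, 0, 3 and 8 in Nat10-ZcKO GV, 0 and 0 in WT MII, with 0, 1 and 0 in Nat10-ZcKO MII libraries. Leaving out the 3 low libraries, Piwil2 had 24 counts over 4 GV libraries and 2 over 4 MII libraries, and Mael had 19 and 1. The highest level of either gene in an MII library was 12.5 CPM, and their lowest level in those 4 GV libraries was 10.4 CPM. In single libraries the depth limits this comparison: a count of 0 in WT MII replicate 1 allows up to 22.2 CPM, which is above the level of Piwil2 in 2 of the 3 WT GV libraries.

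Mov10l1, an RNA helicase that feeds piRNA precursors into processing (chromosome 15, plus strand, 88982909 to 89055152), was near the detection limit everywhere. It had 0, 3 and 0 counts in WT GV, 1, 0 and 1 in Nat10-ZcKO GV, 0 and 0 in WT MII, with 3, 1 and 0 in Nat10-ZcKO MII libraries. Pld6, the mitochondrial nuclease also called Zucchini (chromosome 11, minus strand, 59783897 to 59787645), had 5, 4 and 0 counts in WT GV, 0, 0 and 1 in Nat10-ZcKO GV, 1 and 0 in WT MII, and no count in Nat10-ZcKO MII libraries. At these counts no order of the groups can be read for either gene.

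**Figure D1:**
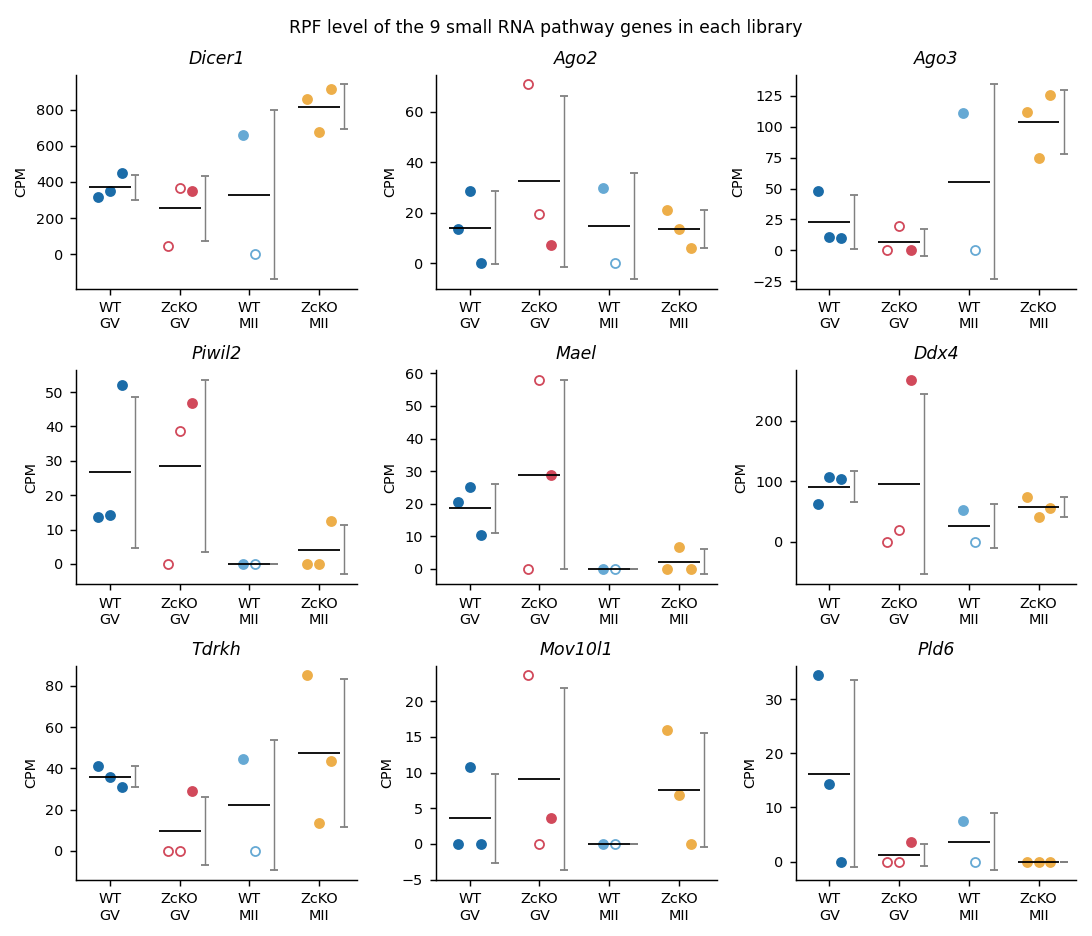
RPF level of each of the 9 genes, in CPM (vertical axis, scaled separately for each gene), in every Ribo-seq library by group. Points are libraries, open where the library is 1 of the 3 low ones, black lines are group means and grey bars the SD. Dicer1 and Ago3 are higher in the 4 filled MII points (660 to 914 and 75.0 to 125 CPM) than in any GV point, while Piwil2 and Mael have 0 to 2 counts in each MII library (at most 12.5 and 6.82 CPM).

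Because the genes differ in length, their levels were compared as TPM (counts per CDS length, scaled to 1000000 in each library). In WT GV oocytes the order was Dicer1 (83.7 ± 16.3 TPM, SD, n = 3), Ddx4 (53.9 ± 15.3), Pld6 (31.4 ± 33.3), Tdrkh (27.6 ± 3.58), Mael (18.5 ± 7.35), Piwil2 (11.9 ± 9.87), Ago3 (11.3 ± 10.5), Ago2 (7.04 ± 7.16) and Mov10l1 (1.24 ± 2.15). Dicer1 (70.7 to 102 TPM) did not overlap Ddx4 (36.2 to 63.4 TPM), while every other pair of neighbours in this order overlapped. Ddx4 also did not overlap Tdrkh (24.2 to 31.3 TPM), which stood 2 places below it. In Nat10-ZcKO MII oocytes the order was led by Dicer1 (186 ± 23.7 TPM, SD, n = 3) and Ago3 (51.5 ± 11.7), followed by Tdrkh (36.5 ± 27.2) and Ddx4 (34.1 ± 9.39), with the remaining genes between 0 and 6.96 TPM on average. In WT MII replicate 1 Dicer1 was at 149 TPM, Ago3 at 54.8, Tdrkh at 34.2 and Ddx4 at 30.7. Ago3 was thus behind Tdrkh and Ddx4 in WT GV oocytes and ahead of both in WT MII replicate 1 and in the Nat10-ZcKO MII mean, where its range (38.5 to 61.1 TPM) overlapped that of Tdrkh (10.9 to 65.1 TPM) and of Ddx4 (25.3 to 44.0 TPM). Averaged over its 3 WT GV libraries, Dicer1 ranked above 82.0% of the genes with a count, Ddx4 above 72.5% and Ago3 above 26.8%. In Nat10-ZcKO MII oocytes these values were 90.5%, 61.5% and 71.1%.

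The makeup of the 9 genes can be read without any scaling between libraries. The 6 piRNA genes (Piwil2, Mael, Ddx4, Tdrkh, Mov10l1 and Pld6) held 31.3% (exact 95% interval 21.3 to 42.6), 34.9% (27.7 to 42.7) and 30.2% (19.2 to 43.0) of the counts on all 9 genes in WT GV libraries. They held 16.7% (0.421 to 64.1), 22.2% (8.62 to 42.3) and 51.5% (44.4 to 58.5) in Nat10-ZcKO GV libraries, the first from 6 counts and the second from 27. In MII oocytes they held 11.5% (6.42 to 18.5) in WT replicate 1 and 15.1% (10.6 to 20.5), 8.20% (4.0 to 14.6) and 9.73% (5.87 to 14.9) in Nat10-ZcKO. All 4 MII libraries with counts on these genes were below all GV libraries, and their intervals did not reach those of WT GV replicates 1 and 2 or Nat10-ZcKO GV replicate 3. The total level of the 6 genes was 172, 208 and 198 CPM in WT GV and 104 CPM in WT MII replicate 1, with 176, 68.2 and 113 CPM in Nat10-ZcKO MII, of which replicate 1 lies within the WT GV range. The total of Dicer1, Ago2 and Ago3 was 378, 386 and 458 CPM in WT GV and 801 CPM in WT MII replicate 1, with 990, 763 and 1046 CPM in Nat10-ZcKO MII, all above WT GV. In bulk libraries such as these, fewer oocytes and less RNA per oocyte cannot be told apart. Ago3 and Ddx4, set side by side after their values were seen, are the most counted of the 9 genes after Dicer1. Ago3 made up 43.8% (19.8 to 70.1), 9.09% (1.92 to 24.3) and 9.09% (0.230 to 41.3) of their joint counts in WT GV libraries. In Nat10-ZcKO GV replicate 3 it had 0 of 74 (0 to 4.86%). In the MII libraries it made up 68.2% (45.1 to 86.1) in WT replicate 1 and 60.0% (42.1 to 76.1), 64.7% (38.3 to 85.8) and 69.0% (49.2 to 84.7) in Nat10-ZcKO, more than in those 4 GV libraries.

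**Figure D2:**
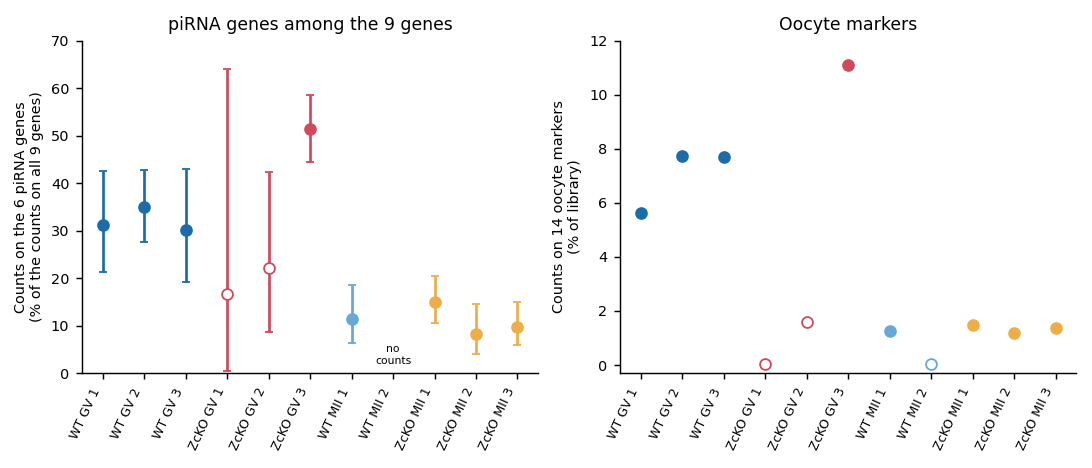
Left, share of the counts on the 9 genes that lay on the 6 piRNA genes, in percent, per Ribo-seq library, with exact 95% intervals as bars. Right, share of each library's counts on 14 oocyte markers, in percent. Open points are the 3 low libraries. The share of piRNA genes is 30.2 to 51.5% in the filled GV points and 8.20 to 15.1% in the filled MII points.

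Whether Nat10 loss changes these genes was tested at each stage with edgeR's quasi-likelihood test across all genes that passed a filter on low counts, with Benjamini-Hochberg adjustment. In GV oocytes Ddx4 and Dicer1 passed the filter, and 0 of these 2 genes was called at an adjusted p under 0.05, as were 0.00% of the 1765 genes tested. Neither had an unadjusted p under 0.05, and DESeq2 also called 0. Ddx4 had a log2 fold change of 0.63 (SE 0.87, adjusted p = 0.908) and Dicer1 one of -0.28 (SE 0.73, adjusted p = 0.927). The value of Ddx4 turned on single libraries. Without Nat10-ZcKO GV replicate 3 it was -3.06 (adjusted p = 0.0610). Without replicates 1 and 2, which leaves replicate 3 as the only Nat10-ZcKO library, Ddx4 was called as higher at 1.73 (adjusted p = 0.00502), the only call among 3 genes tested, beside 2.01% of 3879 genes. Without replicate 1, and without both low libraries, the sign of Dicer1 turned, at 0.11 and 0.14. No direction of a Nat10 effect on Ddx4 or Dicer1 can be given from these GV libraries.

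In MII oocytes Dicer1 and Ago3 passed the filter, and 0 of the 2 was called, beside 0.191% of 2097 genes (4 genes, all lower in Nat10-ZcKO). Neither had an unadjusted p under 0.05. DESeq2 called 0 as well, giving no adjusted p for Ago3. Dicer1 had a log2 fold change of 0.94 (SE 1.64, adjusted p = 0.997) and Ago3 one of 0.01 (SE 0.99, adjusted p = 0.998). With WT MII replicate 2 left out, WT MII is a single library, assumed to vary like the Nat10-ZcKO ones. Dicer1 then had 0.24 and Ago3 -0.17, again with 0 calls among 4 genes tested. Leaving out WT MII replicate 1 instead sets 3 deep libraries against the library of 4815 counts, and Dicer1 and Ago3 are then called at 9.78 and 6.81, while the median of all 2809 genes tested stands at 6.52.

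The stage by genotype term asks whether the step from GV to MII differs between Nat10-ZcKO and WT oocytes. Of the 3 genes tested (Ago3, Dicer1 and Ddx4) 0 were called by edgeR or DESeq2, which gave no adjusted p for Ago3 and Ddx4, and 0 had an unadjusted p under 0.05, beside 0.802% of 3863 genes called. Ago3 had the largest value of the 3, a log2 difference of 3.36 (SE 1.82, adjusted p = 0.789). Dicer1 had 1.91 (SE 1.96, adjusted p = 0.810) and Ddx4 0.42 (SE 1.46, adjusted p = 0.933). Without the 3 low libraries, Nat10-ZcKO GV is replicate 3 alone and WT MII is replicate 1 alone. Ago3 then had a log2 difference of 4.95, with 0 Ago3 counts in the former library and 15 in the latter.

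The stages themselves differed more. MII was set against GV with genotype as covariate over all 11 libraries, where 21.2% of 3863 genes were called, 7.53% higher and 13.7% lower in MII. Of the 9 genes 3 passed the filter, and 1 was called. Ago3 was higher in MII, by 6.77-fold (log2 fold change 2.76, SE 0.85, adjusted p = 0.0143). Dicer1 had 0.98 (SE 1.04, adjusted p = 0.484) and Ddx4 -1.20 (SE 0.74, adjusted p = 0.213). In the fits of a single stage, Ago3 had passed the filter only in MII and Ddx4 only in GV. Each thus entered here through the stage where it was higher, so part of its difference may reflect the filter. The median log2 fold change of all genes tested was -0.59, so Ago3 and Dicer1 lay above it and Ddx4 below. The call of Ago3 was lost without Nat10-ZcKO GV replicate 3 (2.24, adjusted p = 0.0710) and without WT MII replicate 1 (2.81, adjusted p = 0.152).

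Without the 3 low libraries, 4 of the 9 genes passed the filter and 3 were called, in a fit of 8 libraries where 55.0% of 4029 genes were called, 25.5% higher and 29.5% lower, and the median of all genes was -0.10. Ago3 rose 8.83-fold (log2 fold change 3.14, SE 0.73, adjusted p = 0.000689) and Dicer1 rose 1.89-fold (0.92, SE 0.30, adjusted p = 0.0112). Ddx4 fell, with a log2 fold change of -1.87 (SE 0.44, adjusted p = 0.000763). Tdrkh was at 0.38 (SE 0.70, adjusted p = 0.652). Calls in both directions are common in this comparison, so the count for the 9 genes is near that of all genes. The fall of Ddx4 leaned on Nat10-ZcKO GV replicate 3. In the WT libraries alone, with WT MII replicate 2 left out, Ddx4 had -0.74 (adjusted p = 0.349), Dicer1 0.93 (adjusted p = 0.0175) and Ago3 2.33 (adjusted p = 0.0572), with MII held by 1 library. With WT MII replicate 2 kept, Dicer1 had 0.41 (adjusted p = 0.886) and Ddx4 -0.67 (adjusted p = 0.643), and Ago3 was not tested. In the Nat10-ZcKO libraries alone Ago3 had 4.42 (adjusted p = 0.0264) and Dicer1 1.29 (adjusted p = 0.257), with replicates 1 and 2 of GV included.

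Piwil2 and Mael did not pass the filter in the stage fits of 11 and of 8 libraries. With every counted gene tested over all 11 libraries, Mael had a log2 fold change of -3.45 (unadjusted p = 0.00555, adjusted p = 0.105) and Piwil2 one of -3.02 (unadjusted p = 0.00756, adjusted p = 0.121), neither past the threshold. The call of Ago3 is also lost there (2.78, adjusted p = 0.0834), since 13685 genes are tested. Ago2 (-0.15), Mov10l1 (-0.29), Pld6 (-1.88) and Tdrkh (0.66) had adjusted p from 0.479 to 0.935.

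Other genes of the 2 pathways were taken from lists of 16 microRNA and siRNA genes and 22 piRNA genes. In the microRNA and siRNA list 5 of 16 genes were tested over 11 libraries, and 1 rose and 0 fell, with a median log2 fold change of -0.38 against -0.59 for all genes tested, where 7.53% were called higher and 13.7% lower. DESeq2 called 1 higher and 2 lower, beside 464 higher and 1475 lower of all 3863 genes. The gene that rose was Lin28a, an RNA-binding protein that blocks the maturation of let-7 microRNAs, with 2.19 (SE 0.80, adjusted p = 0.0361). It passed the filter in the MII fit and not in the GV fit. Its counts were 4, 8 and 2 in WT GV, 0, 2 and 5 in Nat10-ZcKO GV, 14 and 0 in WT MII, with 36, 22 and 19 in Nat10-ZcKO MII libraries. No gene of this list was called with no filter, with a replicate block, or without any 1 of WT GV replicates 2 and 3, Nat10-ZcKO GV replicate 3, WT MII replicate 1 and Nat10-ZcKO MII replicates 1 and 2. Drosha, the nuclease that starts microRNA maturation, had the highest level of this list in WT GV oocytes (60.1 ± 23.6 TPM, SD, n = 3) and a stage difference of -0.38 (adjusted p = 0.766). Xpo5, which exports microRNA precursors (33.0 ± 8.10 TPM), had -0.76 (adjusted p = 0.452), and Adar, an enzyme that edits double-stranded RNA (13.7 ± 5.17 TPM), was not tested. The other Argonautes of the AGO class were scarcely read, with 8 RPFs on Ago1 and 4 on Ago4 over all libraries. Without the 3 low libraries Lin28a again rose (2.33, adjusted p = 0.000434) as 1 of 4 genes tested, beside 25.5% higher over all genes, and Tnrc6b, a partner of Argonaute in silencing, had 1.27 (adjusted p = 0.0524).

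In the piRNA list 8 of 22 genes were tested over 11 libraries, of which 2 fell and 0 rose, beside 13.7% lower over all genes. DESeq2 called 6 of the 8 lower, beside 1475 of all 3863 genes. With edgeR 0 were called with a replicate block or without Nat10-ZcKO GV replicate 3, WT MII replicate 1 or Nat10-ZcKO MII replicate 1. The median of the 8 was -2.14 against -0.59 for all genes tested. The 2 were Tdrd9, a helicase with a tudor domain (-2.70, SE 0.84, adjusted p = 0.0149), and Asz1, a mitochondrial piRNA factor (-2.54, SE 0.90, adjusted p = 0.0312). Both passed the filter in the GV fit and not in the MII fit, so both entered through the stage where they were high. Tdrd9 had 29, 57 and 21 counts in WT GV, 1, 0 and 62 in Nat10-ZcKO GV, 3 and 0 in WT MII, with 2, 5 and 4 in Nat10-ZcKO MII libraries. Asz1 had 80, 45 and 18 counts in WT GV, 0, 1 and 73 in Nat10-ZcKO GV, 3 and 0 in WT MII, with 3, 8 and 7 in Nat10-ZcKO MII libraries. Both were nearly absent from the 2 GV libraries low in oocyte markers, and in the other 4 GV libraries both stood above every MII library. Without the 3 low libraries 10 were tested and 7 fell, beside 29.5% lower over all genes, with a median of -2.30 against -0.10. The 7 were Tdrd9 (-3.40), Gpat2 (-3.39), Asz1 (-3.26), Stk31 (-2.74), Gtsf1 (-2.26), Tdrd5 (-1.66) and Tdrd1 (-1.16), with adjusted p from 5.12e-07 to 0.0313. The filter lets a gene in through GV counts alone, and of these 7 only Tdrd1 and Tdrd5 passed it in the MII fit. The falls and the list medians may in part reflect that filter. With no filter over 11 libraries, 21 genes of the list were tested and 2 fell, beside 178 of 13685 genes. The median was then -1.71 against -0.80. In the WT libraries alone 7 genes of this list were tested and 0 fell, as did 0 of all 2045 genes tested. Their median was -2.21 against -0.67 for all genes. In the Nat10-ZcKO libraries alone 3 were tested and 0 fell, beside 146 of 2225 genes. Their median was -0.52 against -0.12. With WT MII replicate 2 left out of the WT libraries, MII is held by 1 library, and calls of this list are not counted for that fit. The median of 9 genes was then -2.18 against -0.35. Gtsf1 is a zinc finger partner of PIWI proteins, Gpat2 a mitochondrial piRNA factor, and Tdrd1 and Tdrd5 are tudor proteins of the granules in which piRNAs are made. In WT GV oocytes Asz1 (270 ± 194 TPM, SD, n = 3), Gtsf1 (225 ± 96.9), Tdrd1 (171 ± 18.3) and Tdrd5 (90.3 ± 15.8) had the highest levels of this list, all on average above Ddx4. The PIWI genes were on average lower there than these 4, with Piwil2 at 11.9 ± 9.87 TPM, Piwil1 at 3.45 ± 2.99 TPM and no RPF on Piwil4 in any library. At each stage edgeR called 0 genes of either list between the genotypes, among 2 microRNA and siRNA genes and 4 piRNA genes tested in GV and 3 of each in MII. DESeq2 also called 0, and 0 had an unadjusted p under 0.05, beside 0.00% of all genes called in GV and 0.191% in MII. The median of the piRNA genes tested in GV was -0.88, and 0.31 over 11 genes without the 2 low Nat10-ZcKO libraries, again with 0 calls. Without Nat10-ZcKO GV replicate 3 instead, 1 of 4 microRNA and siRNA genes tested was called higher and 2 of 4 piRNA genes lower. Over all genes that fit called 213 higher and 167 lower in Nat10-ZcKO GV oocytes, of 1858 tested. Without WT MII replicate 1, WT MII is the library of 4815 counts alone. The medians were then 7.33 for microRNA and siRNA genes and 7.04 for piRNA genes, against 6.52 for all 2809 genes tested.

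**Figure D3:**
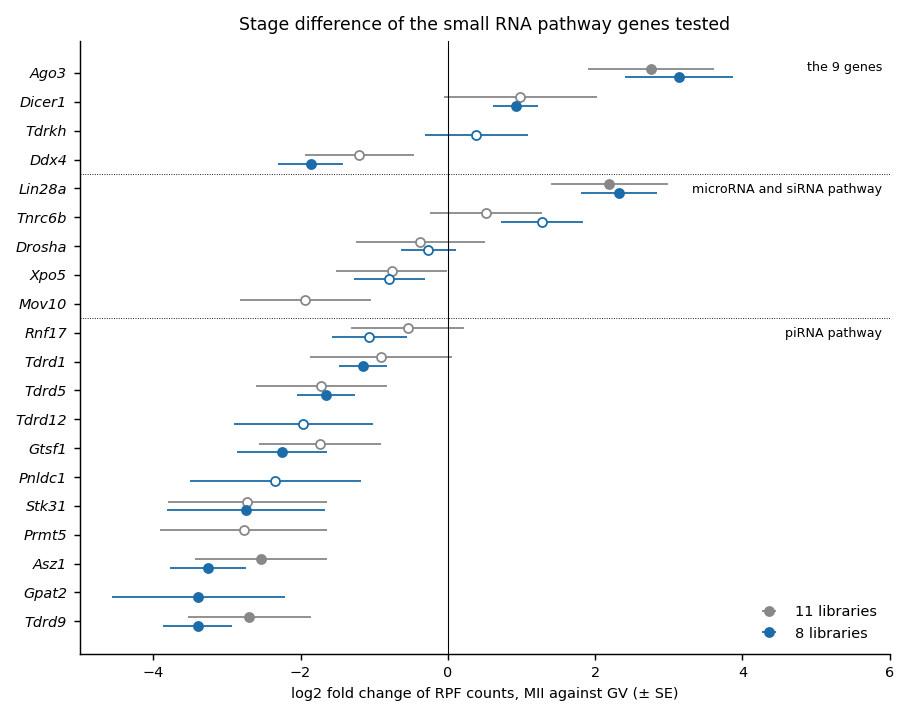
Log2 fold change of RPF counts in MII against GV oocytes (horizontal axis, bars ± SE) for each gene of the 9 and of the 2 pathway lists that was tested. Grey is the fit of 11 libraries and blue that of 8, and filled points have an adjusted p under 0.05. Ago3 (2.76 and 3.14) and Lin28a (2.19 and 2.33) are filled to the right of 0 in both fits, and Tdrd9 and Asz1 are filled to the left in both.

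Among genes with at least 200 counts over the 10 libraries of at least 20000 counts, the pattern of the 3 most counted genes was matched most closely, by Pearson's r of log2(CPM + 10), by the following. For Dicer1 they were Cobll1 (r = 0.992), Kbtbd8 (0.988) and Slc7a6os (0.986), for Ddx4 Sin3b (0.970), Rdx (0.956) and Nrn1l (0.949), and for Ago3 Baiap2l1 (0.981), Lrp6 (0.969) and Tet3 (0.967). These values describe 10 libraries that also share depth and the 2 GV libraries low in oocyte markers. Without those 2, 3 of the 9 named genes stayed among the first 3: Sin3b, Baiap2l1 and Lrp6. Between the 3 genes themselves r was 0.764 for Dicer1 and Ago3, 0.565 for Dicer1 and Ddx4, and 0.0221 for Ddx4 and Ago3. Without the 2 GV libraries low in oocyte markers these values were 0.802, -0.57 and -0.87, so both values with Ddx4 rest on those libraries.

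Translation of stored oocyte mRNAs during maturation is known to involve the cytoplasmic polyadenylation element, which lies near the end of the 3′ UTR. The letters TTTTAT or TTTTAAT, read on the mRNA strand only, were searched in the last 150 bases of the annotated 3′ UTR (GENCODE M21, GRCm38). For each gene 1 transcript was searched, that with the longest CDS. Dicer1, Ago2, Ago3 and Ddx4 hold 1 match each, and Piwil2, Mael, Tdrkh, Mov10l1 and Pld6 hold none, while 23.3% of 18107 genes hold at least 1. The 4 stretches are shown because the genes with a match include both those higher in MII (Dicer1 and Ago3) and the one that was lower without the 3 low libraries (Ddx4). Each is 30 bases on the minus strand, in lower case with the match in capitals.
Dicer1, chr12:104687761-104687790: tttctttttctTTTTAATaattgtagtcaa
Ago3, chr4:126332732-126332761: gcagaaagctaataaagtTTTTAATcaaaa
Ago2, chr15:73095926-73095955: atgatgtggataTTTTATaaagttattttg
Ddx4, chr13:112598371-112598400: acaaatgtttgcTTTTATaatatacagatt
A match of letters is not a site in use, and the 3′ end that these mRNAs have in oocytes was not measured here. In Ago3 the match lies 5 bases from the end of the transcript searched, behind the letters AATAAA, and in Dicer1 it lies 31 bases from the end. The annotated Ago3 gene runs on past that transcript end, to 126331704.

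Whether the mRNAs of these genes carry ac4C was asked by acRIP-seq in WT GV oocytes, with 970997 anti-ac4C counts and 116232 anti-IgG counts. There is 1 library of each and so no test, and the intervals are exact at 95% and cover counting error only. A ratio was taken where a library held over 3 counts, with an IgG count of 0 set at 3, which left 7 of the 9 genes. Anti-IgG counts of 1 and 2 were kept, so genes with 0, Ago2 and Piwil2 among them, had a stricter limit than those. All shares of genes above 2 follow this rule. By it Mael was the only 1 of the 7 with a ratio of CPM above 2, beside 18.0% of the 10304 genes with over 3 counts. It had 117 and 6 counts, a ratio of 2.33 (1.04 to 6.49). Its interval reaches below 2, and 0 of the 7 genes had a lower bound above 2, beside 4.26% of all genes.

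Dicer1 had 765 anti-ac4C and 83 anti-IgG counts and a ratio of 1.10 (0.879 to 1.40), which lies below 2 over its whole interval. So did Ddx4, with 92 and 12 counts and a ratio of 0.918 (0.501 to 1.84), and Tdrkh, with 81 and 16 counts and a ratio of 0.606 (0.352 to 1.11). Ago3 had 57 and 5 counts and a ratio of 1.36 (0.552 to 4.36), too wide to place on either side of 2. Ago2 had 44 anti-ac4C counts and 0 anti-IgG counts, so that its exact interval starts at 1.37, and its ratio with the IgG library set at 3 counts is 1.76. Piwil2 had 22 and 0 counts, for which these values are 0.656 and 0.878. Mov10l1 had 1 and 0 counts and Pld6 had 1 and 2, and no ratio is given. Fragments on no gene made up 46.7% of the fragments with anti-IgG, against 17.1% with anti-ac4C. With totals that include the fragments on no gene, every ratio is 1.55 times as high, 31.3% of all genes are above 2, and so are Mael (3.62, 1.62 to 10.1), Ago3 (2.12, 0.857 to 6.78) and Ago2 (2.73 with IgG at 3 counts, interval from 2.13). The intervals of Dicer1 (1.36 to 2.18) and Ddx4 (0.778 to 2.86) then reach past 2, and that of Tdrkh (0.546 to 1.72) does not. In these libraries of mRNA fragments the 6 piRNA genes held 29.0% (21.2 to 37.9) of the anti-IgG and 26.6% (24.1 to 29.2) of the anti-ac4C counts on the 9 genes.

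**Figure D4:**
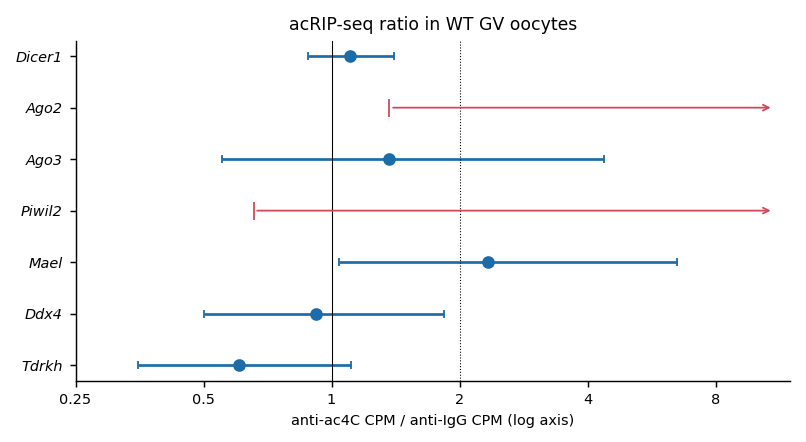
Ratio of anti-ac4C to anti-IgG CPM in WT GV oocytes (horizontal log axis) for the 7 genes with over 3 counts in a library, with exact 95% intervals for counting error. For Ago2 and Piwil2, which had 0 anti-IgG counts, the arrow starts at the lower end of the exact interval (1.37 and 0.656). The solid line marks a ratio of 1 and the dotted line a ratio of 2, which only Mael (2.33) exceeds as a point.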

How the data were processed

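Both assays come as raw whole-number counts that the authors deposited, 1 library at a time: RPFs on each CDS (Ribo-seq) and fragments on each protein-coding gene (acRIP-seq). The submitters' processing notes name cutadapt, STAR, HTSeq and mm10, without versions. Handling of PCR duplicates is not given in the sources used here. Summary lines that name no gene were left out of library sizes. Of 22442 identifiers, 21765 matched GENCODE M21 in full, 634 without the version and 43 did not match. TPM used the union of CDS segments, which 83 genes lack.

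Groups followed the labels. Tests used edgeR 4.0.16 (R 4.3.3): filterByExpr, TMM, glmQLFit and glmQLFTest, prior count 0.125, Benjamini-Hochberg adjustment over all genes tested. SE is the log2 fold change over the square root of F. The GV fit held 6 libraries, the MII fit 5, the stage and interaction fits 11. DESeq2 1.42.0, scaling by library size only, no filter, a replicate block, all libraries in one fit and each library left out were alternatives. Intervals were computed in scipy 1.17.1. Recovery of simulated 8-fold changes was counted among the changed genes that passed the filter. Changed genes were drawn only above a minimum count, so recovery of genes with fewer counts was not measured. At a dispersion of 0.1, 153 of 153 were recovered in GV (1671 genes) and 146 of 153 in MII (2297). For stage it was 160 of 163 (3280) and for the interaction 95 of 168 (2945). At a dispersion of 1 these were 0 of 127 (1885 genes), 0 of 140 (2164), 15 of 159 (3630) and 0 of 180 (3937).

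Named genes were the 9 members, Nat10, in each pathway list the genes with an adjusted p-value under 0.05 and the 4 with the highest WT GV level, and 3 genes most like each of the 3 most counted members. Tnrc6b, Gpat2, Stk31, Ago1, Ago4, Piwil1 and Piwil4 were named after their values were seen. The 9 genes and all lists were chosen with earlier results of these data known. The comparison of WT libraries without WT MII replicate 2 was added after seeing the data. RNA-seq was not used here.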

Additional observations from a re-analysis of the deposited data

How the results depend on the processing

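The 11 Ribo-seq libraries held few RPFs on these genes, so at most 4 of the 9 passed the filter in the comparisons reported over all libraries or without the low ones, and genes such as Mov10l1 and Pld6 cannot be compared. Alternatives changed the count of called members as follows. In GV oocytes it was 1 in place of 0 without the 2 Nat10-ZcKO GV libraries low in oocyte markers, and 0 to 0 when each library was left out. In MII oocytes it was 0 to 2 when each library was left out, and likewise 0 to 2 for the interaction, the 2 coming from leaving out WT MII replicate 1. For the stages it was 0 in place of 1 with no filter, with the WT libraries only and with a replicate block, 3 without the 3 low libraries, and 0 to 1 when each library was left out, the 0 coming from Nat10-ZcKO GV replicate 3 and WT MII replicate 1. Over all genes, DESeq2 called 464 higher and 1475 lower in MII, against 291 and 529 by edgeR. Members with an acRIP ratio above 2 numbered 3 with totals that include fragments on no gene, which multiply every ratio by 1.55, and 0 when the lower bound was used. The shares over all genes were then 31.3% and 4.26%. Of the 9 genes most like Dicer1, Ddx4 and Ago3, 3 stayed with a pseudocount of 1 CPM and 3 without the 2 GV libraries. For these changes the cause was not tested, beyond the fewer or more genes and libraries that each alternative holds.

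Signs turned in these cases. Ddx4 in GV oocytes was -0.39 with a replicate block, and between -3.06 and 1.06 when each library was left out; Dicer1 there was 0.14 without the 2 low libraries and -0.79 to 0.11 with each library left out. Ago3 in MII oocytes was -0.021 with library size only, and -0.26 to 6.81 with each library left out. Ddx4 in the stage fit ranged from -1.49 to 0.14 with each library left out. Ddx4 in the interaction was -0.023 with DESeq2, -0.13 with library size only and -1.59 without the 3 low libraries, with the range -0.45 to 5.72 when each library was left out. Every stage value of Ago3 (2.24 to 4.42 over 19 fits) and of Dicer1 (0.41 to 1.64 over 20 fits) was positive, with adjusted p from 0.000689 to 0.152 and from 0.0112 to 0.886.

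Replicate numbers were not found to pair the libraries: deviations from the group means correlated at -0.139 to 0.212 for the same number (15 pairs) and at -0.212 to 0.189 for different numbers (30 pairs). With a replicate block the stage value of Ago3 was 2.64 (edgeR adjusted p = 0.0557), 0 members were called in any of the 4 comparisons, and over all genes 85 were higher and 175 lower in MII.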
